A study of Mus musculus with 18 samples.

Results

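Described here are Rgs9 and the genes of the R7 RGS complex in mouse nucleus accumbens, 7 genes in all of the 37980 in each of the authors' deposited tables. They were found by symbol: Rgs9, Rgs7, Rgs6 and Rgs11 encode the R7 RGS proteins, Gnb5 encodes their beta subunit, and Rgs7bp and Rgs9bp encode membrane anchors. In mm9, the build of the files, Rgs9 lies at chr11:109086668-109159443, Rgs7 at chr1:176989866-177421261, Rgs6 at chr12:83717911-84259755 and Rgs11 at chr17:26332943-26348269. Gnb5 lies at chr9:75159201-75193678, Rgs7bp at chr13:105737232-105845010 and Rgs9bp at chr7:36364016-36370601. Each symbol had 1 row per table, and 6 of the 7 genes were tested in all 7 tables, while Rgs9bp was tested in 0. RNA sequencing was done on 18 samples in 6 groups of 3 biological replicates, from mice on a C57BL/6 background labelled Rgs9-2KO (knockout) or Rgs9-2WT (wild type). In each genotype 1 group was naive, with no injury or injection named in the labels. A second group had a spared nerve injury (SNI), in which sciatic nerve branches are cut so that neuropathic pain lasts, and chronic intraperitoneal saline. The third had the same injury and chronic desipramine, a tricyclic antidepressant, at 15 mg/kg, with saline and desipramine both given 2 times a day. The study asked what RGS9-2, the striatal form of RGS9, does to gene expression there during neuropathic pain and during treatment with an antidepressant. The labels do not give the exons removed by the Rgs9 allele, the sex or the age of the mice.

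RGS proteins speed up GTP hydrolysis by G protein alpha subunits and so shorten signalling from G protein-coupled receptors. The R7 proteins act on alpha subunits of the Gi/o class and are unstable without the beta subunit GNB5, which they bind through a domain that resembles a G protein gamma subunit. The anchors RGS7BP and RGS9BP bind the N-terminal part of R7 proteins and hold the complex at membranes. In the striatum RGS9-2 is abundant in medium spiny neurons, the main output neurons, where it limits signalling from dopamine D2 and mu opioid receptors. The shorter form RGS9-1 and the anchor RGS9BP work in photoreceptors of the retina.

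Rgs9 has 1 value per group in the authors' deposited tables, which does not separate its forms. GENCODE M21 annotates 5 transcripts of the gene on the minus strand of chromosome 11, of which 4 are coding. The long form has 675 codons in 19 exons and the short form 484 codons in 17 exons. They share 1398 coding bases and part within exon 17, where the long form splices to exon 18 and the short form reads on. The long form has 627 coding bases of its own, which encode the extended C-terminal tail of RGS9-2, and the short form 54. The place where they part is given here in GRCm38 (GENCODE M21 transcripts), with 36 shared bases in lower case and the first 54 bases of each form's own coding sequence in capitals. These sequences are shown because a loss or gain of the tail alone would not be visible as such in the gene's single value.
Rgs9 long form: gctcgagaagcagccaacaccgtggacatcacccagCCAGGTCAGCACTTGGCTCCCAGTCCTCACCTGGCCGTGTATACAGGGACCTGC
Rgs9 short form: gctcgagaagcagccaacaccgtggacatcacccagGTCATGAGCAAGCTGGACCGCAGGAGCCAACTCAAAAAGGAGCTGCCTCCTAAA
The shared stretch starts at base 109235935 of chromosome 11 in GRCm38. The coding sequence of the long form continues at 109227126-109227604 in exon 18 and at 109225629-109225776 in exon 19, and that of the short form ends at base 109235846. Over whole transcripts the forms share 1470 exon bases, 60.4% of the long and 63.6% of the short transcript.

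Each of the authors' deposited tables compares a pair of groups with Cuffdiff and gives 1 FPKM value (fragments counted per length of transcript and per number of mapped fragments) per gene and group. Being per length, FPKM levels can be set beside each other between genes. No value per sample was given, so the spread within a group cannot be read from them, and sequencing depth is unknown. A gene was called where its Cuffdiff status was OK and its q, adjusted over all genes tested in that table, was at or below 0.05. A value after ± is the standard error that the deposited test statistic implies, and intervals are 95% intervals from it. They assume a normal distribution, and an interval that holds 0 can go with an unadjusted Cuffdiff p under 0.05. With 6 lanes and 0 of them shared between groups, a lane effect and a group effect cannot be told apart. Naive mice labelled wild type differed from the rest, with FPKM values that summed to 648632 to 660678 over all genes, against 521317 to 543240 in the other groups' values in the authors' deposited tables. Because Rgs9 itself was higher in the groups labelled knockout, the genotypes are named by their labels throughout.

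Rgs9 had the highest level of the 7 genes in every group of the authors' deposited tables. It had 217 to 219 FPKM in the naive, 175 to 177 FPKM in the saline and 166 to 168 FPKM in the desipramine group labelled knockout, where each range covers the tables that hold the group. In groups labelled wild type it had 120.3 to 123 FPKM in naive, 103 to 105 FPKM in saline-treated and 114 to 115 FPKM in desipramine-treated mice. All 3 groups labelled knockout thus had group values above all 3 labelled wild type. That order rests on 1 value per group and table, and the share of all genes with such an order was not counted. Gnb5 followed with 101 to 122 FPKM over all groups, so that its highest value was 1.21 times its lowest, against 2.12 times for Rgs9. Rgs7bp ranged between 32.0 and 43.3 FPKM, Rgs7 between 29.97 and 33.9 FPKM, and Rgs11 between 18.9 and 26.5 FPKM. Rgs6 was the lowest of the tested genes at 5.63 to 7.01 FPKM. The retinal anchor gene Rgs9bp was listed at 0.0128 to 0.0250 FPKM and was tested by Cuffdiff in none of the tables.

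**Figure D1:**
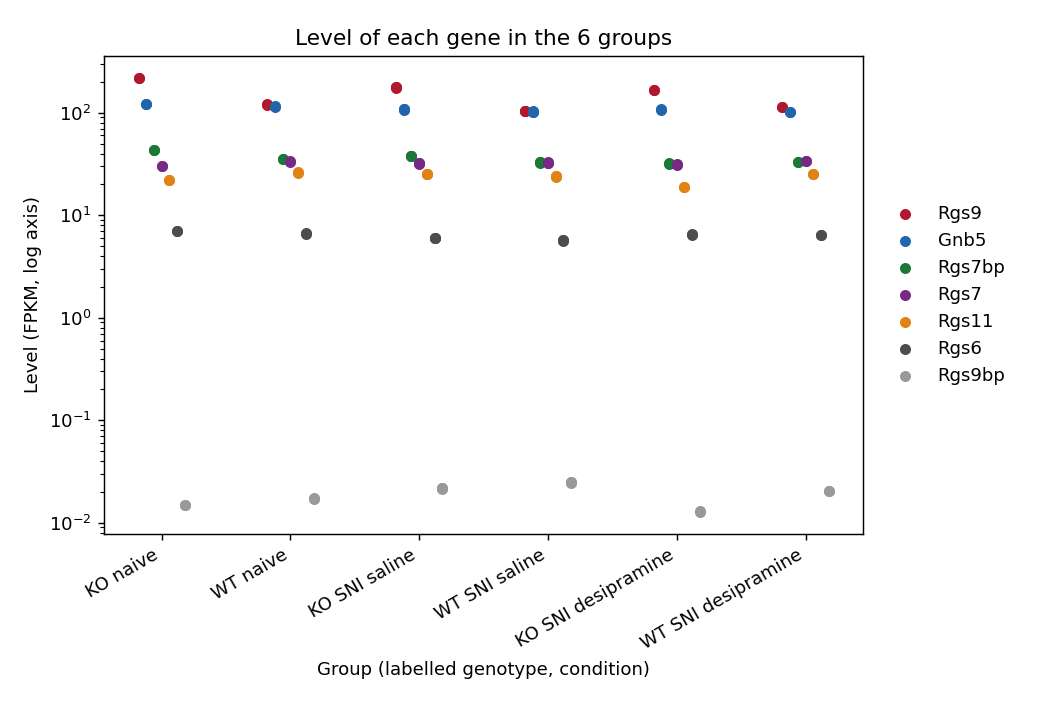
Level of each of the 7 genes (FPKM, logarithmic axis) in the 6 groups, with 1 point per deposited table that holds the group and no error bars, since no value per sample was given. Rgs9 sits at 166 to 219 FPKM in the groups labelled knockout (KO) and at 103 to 123 FPKM in those labelled wild type (WT), Gnb5 stays at 101 to 122 FPKM, and Rgs9bp lies far below the others.

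The genotype comparisons asked how loss of RGS9-2 changes expression, and Rgs9 was the only member called in them. Naive mice had 217 FPKM of Rgs9 in the group labelled knockout and 120.3 FPKM in that labelled wild type in the authors' deposited table, 1.80-fold (interval 1.014 to 3.21, Cuffdiff q = 0.0443). Among injured mice on saline Rgs9 had 177 FPKM in the group labelled knockout and 104 FPKM in that labelled wild type, 1.70-fold (interval 1.18 to 2.46, Cuffdiff q = 0.0170 in the authors' deposited table). With desipramine it had 168 FPKM in the group labelled knockout and 114 FPKM in that labelled wild type, 1.47-fold (interval 1.13 to 1.90, Cuffdiff q = 0.00818 in the authors' deposited table). The direction goes against the label, and a value over the whole gene checks neither the deleted part nor the protein. Whether the genotype labels were exchanged, or the allele leaves the counted exons transcribed, was not tested, and an exchange would turn the sign of every genotype difference given here. Among all tested genes 1.44% were called in naive mice (0.334% higher and 1.11% lower), 0.329% with saline (0.168% higher and 0.162% lower) and 0.859% with desipramine (0.311% higher and 0.548% lower). Of the 6 tested members 1 was called higher in each. By log2 fold change Rgs9 stood at place 263 of 14498 genes with at least 1 FPKM in either group in naive mice, 112 of 14458 with saline and 228 of 14520 with desipramine. The call in naive mice was lost when p-values were adjusted over all 7 tables (adjusted p = 0.0684). With a normal p from the deposited test statistic all 3 calls were lost (adjusted p of 0.999956 in naive mice, 0.957 with saline and 0.524 with desipramine).

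The genotype comparisons share no samples with each other, which allows the genes called in all 3 to be counted. Of 16861 genes tested in all 3, Rgs9 and Ppp1r16b, a regulatory subunit of protein phosphatase 1, were called higher in the group labelled knockout each time, which is 0.0119%. The pseudogene Gm11942 was called lower each time (0.00593%), and both genes beside Rgs9 are named after their values were seen. Ppp1r16b had log2 fold changes of 1.03 ± 0.43 in naive, 0.57 ± 0.26 in saline-treated and 0.55 ± 0.19 in desipramine-treated mice in the authors' deposited tables. Rgs9 had 0.85 ± 0.42 in naive, 0.77 ± 0.27 in saline-treated and 0.55 ± 0.19 in desipramine-treated mice in the authors' deposited tables. Of both genes the smallest value was that of the desipramine-treated mice, but for Ppp1r16b it lay well within error of the saline value. Whether the values of Ppp1r16b differ between the 3 comparisons was not tested.

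Whether the genotype difference of Rgs9 depended on injury or drug was tested by the difference of log2 fold changes over its standard error. From naive to injured, saline-treated mice the difference between genotypes changed by -0.09 ± 0.50 (interval -1.07 to 0.90, adjusted p = 0.999959 over 13636 genes). With desipramine instead of saline it changed by -0.21 ± 0.33 (interval -0.86 to 0.44, adjusted p = 0.999978). Desipramine-treated against naive mice gave -0.30 ± 0.47 (interval -1.21 to 0.61, adjusted p = 0.99996). None of the 6 tested members passed this normal test in any of the 3 comparisons, and 0 had an unadjusted p under 0.05. Over all genes 22 (0.161%), 18 (0.13%) and 8 (0.0586%) passed with adjustment. The lowest unadjusted p of a member was 0.383, between desipramine and saline, where the genotype difference of Rgs7bp changed by -0.24 ± 0.28 and that of Rgs11 by -0.47 ± 0.54. In each of the 3 tests the interval for Rgs9 holds both 0 and a loss of its whole genotype difference.

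Injury and desipramine were compared within each genotype, and none of the 6 tested members was called in these 4 tables. The injury tables set injured mice with saline injections against naive mice, so surgery and injections cannot be told apart in them. The share of all genes called was 1.42% for injury in mice labelled wild type, 0.459% for injury in mice labelled knockout, 0.202% for desipramine in mice labelled wild type and 1.05% for desipramine in mice labelled knockout. Injury in mice labelled knockout gave Rgs9 its lowest p of the 4 (unadjusted p = 0.0313, Cuffdiff q = 0.903 in the authors' deposited table). There it had 175 FPKM in injured, saline-treated mice and 219 FPKM in naive mice, a log2 fold change of -0.32 (interval -0.83 to 0.19) in the authors' deposited table. Injury in mice labelled wild type had 103 FPKM of Rgs9 in injured and 123 FPKM in naive mice, a log2 fold change of -0.25 (interval -1.09 to 0.60) in the authors' deposited table. Both values were negative and neither passed. Desipramine gave Rgs9 a log2 fold change of -0.09 (interval -0.58 to 0.39) in mice labelled knockout, with 166 FPKM against 177 FPKM under saline, in the authors' deposited table. In mice labelled wild type it gave 0.13 (interval -0.31 to 0.56), with 115 FPKM against 105 FPKM under saline, in the authors' deposited table. In the order of Rgs9 levels, 3 pairs of neighbours were compared directly by the authors: naive and saline, and saline and desipramine, in mice labelled knockout, and desipramine and saline in mice labelled wild type. The interval of each of the 3 differences holds 0, although the unadjusted Cuffdiff p for naive and saline in mice labelled knockout was 0.0313. These intervals assume a normal distribution and need not match Cuffdiff's p, so they do not settle that order. No table sets the lowest group labelled knockout against the highest labelled wild type.

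**Figure D2:**
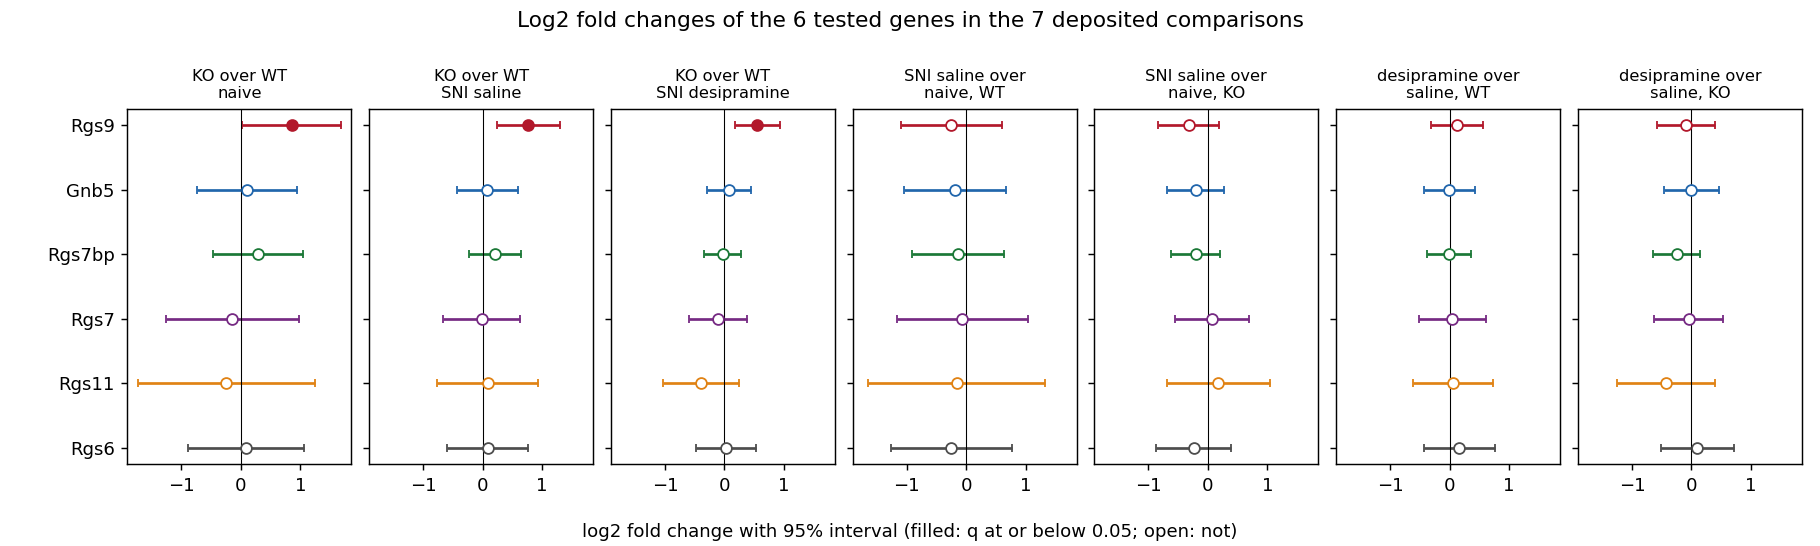
Log2 fold change (horizontal axis) with its 95% interval for the 6 tested genes in the 7 deposited comparisons, the first group named over the second, with filled points for q at or below 0.05. The 3 filled points are Rgs9 in the genotype comparisons, at 0.85, 0.77 and 0.55, and the intervals of all other points reach across 0.

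Rgs7, Rgs6 and Rgs11 encode the other R7 proteins, of which RGS7 and RGS6 are widespread in brain. Rgs7 had 29.97 FPKM in naive mice labelled knockout and 33.1 FPKM in those labelled wild type, a log2 fold change of -0.14 (interval -1.27 to 0.98) in the authors' deposited table. With saline it had 32.2 FPKM in mice labelled knockout and 32.6 FPKM in those labelled wild type, and with desipramine 31.5 FPKM in mice labelled knockout and 33.8 FPKM in those labelled wild type, in the authors' deposited tables. The desipramine table gave the narrowest interval for Rgs7, -0.59 to 0.38 on the log2 scale (authors' deposited table). In each pair the group labelled knockout was the lower, by no more than its error. Rgs6 had 6.95 FPKM in naive mice labelled knockout and 6.58 FPKM in those labelled wild type, in the authors' deposited table. With saline it had 6.03 FPKM in mice labelled knockout and 5.69 FPKM in those labelled wild type, and with desipramine 6.49 FPKM in mice labelled knockout and 6.41 FPKM in those labelled wild type, in the authors' deposited tables. Its log2 fold changes between genotypes were 0.08, 0.08 and 0.02, with standard errors of 0.50, 0.35 and 0.26 in the authors' deposited tables. These 2 genes showed no call in either direction in the 7 tables.

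Rgs11 varied more than Rgs7 and Rgs6 among groups and had the widest errors. It had 19.1 FPKM in desipramine-treated mice labelled knockout and 25.04 FPKM in those labelled wild type, a log2 fold change of -0.39 (interval -1.04 to 0.25, Cuffdiff q = 0.999773) in the authors' deposited table. Against saline in mice labelled knockout, desipramine gave 18.9 FPKM and saline 25.4 FPKM, a log2 fold change of -0.43 (interval -1.25 to 0.40), the largest in size among the tested members other than Rgs9 in the authors' deposited tables. Desipramine in mice labelled wild type gave 25.1 FPKM and saline 24.2 FPKM in the authors' deposited table. Naive mice had 21.98 FPKM in the group labelled knockout and 26.1 FPKM in that labelled wild type in the authors' deposited table. With saline the sign was the other, with 25.4 FPKM in mice labelled knockout and 24.0045 FPKM in those labelled wild type, a log2 fold change of 0.08 (interval -0.77 to 0.93) in the authors' deposited table. The desipramine-treated group labelled knockout thus had the lowest of the 6 levels, but no comparison passed. Rgs11 shares its locus in the authors' deposited tables with Arhgdig, an antisense neighbour that overlaps it in GENCODE M21, and with Pdia2. Since no strand setting is given in the sources used here, reads of Rgs11 and Arhgdig may not be told apart. Arhgdig had 32.6 FPKM in naive mice labelled knockout and 61.9 FPKM in those labelled wild type in the authors' deposited table. With saline it had 33.4 FPKM in mice labelled knockout and 33.6 FPKM in those labelled wild type, and with desipramine 33.5 FPKM in mice labelled knockout and 37.8 FPKM in those labelled wild type, in the authors' deposited tables.

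Gnb5, the beta subunit gene on which the R7 proteins depend for stability, had nearly level values. It had 121 FPKM in naive mice labelled knockout and 113 FPKM in those labelled wild type in the authors' deposited table. With saline as with desipramine it had 108 FPKM in mice labelled knockout and 102 FPKM in those labelled wild type, in the authors' deposited tables. Its log2 fold changes between genotypes were 0.10, 0.08 and 0.08, none of which passed (lowest Cuffdiff q = 0.999 in the authors' deposited tables). With desipramine the interval for Gnb5 was -0.28 to 0.45, whose upper end lies under the 0.55 of Rgs9 in the same authors' deposited table. The interval of Rgs9 there, 0.18 to 0.93, overlaps that of Gnb5. Naive mice gave a wider interval, -0.74 to 0.94, which holds the 0.85 of Rgs9 there (authors' deposited table). The difference between the changes of the 2 genes was not tested, since both come from the same samples. Injury gave Gnb5 log2 fold changes of -0.21 ± 0.25 in mice labelled knockout and -0.19 ± 0.44 in those labelled wild type in the authors' deposited tables. Desipramine gave it -0.004 ± 0.24 in mice labelled knockout and -0.006 ± 0.22 in those labelled wild type in the authors' deposited tables.

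Rgs7bp, whose product anchors R7 complexes in neurons, had the largest positive difference after Rgs9 in naive and saline-treated mice, without passing. It had 43.0 FPKM in naive mice labelled knockout and 35.2 FPKM in those labelled wild type, a log2 fold change of 0.29 (interval -0.47 to 1.05, Cuffdiff q = 0.885) in the authors' deposited table. Under saline it had 38.0 FPKM in mice labelled knockout and 32.9 FPKM in those labelled wild type, a log2 fold change of 0.21 (interval -0.23 to 0.65) in the authors' deposited table. With desipramine the values were 32.3 FPKM in mice labelled knockout and 33.0 FPKM in those labelled wild type, a log2 fold change of -0.03 (interval -0.35 to 0.29) in the authors' deposited table. The naive group labelled knockout had the highest and the desipramine-treated group labelled knockout the lowest Rgs7bp level of the 6. Desipramine in mice labelled knockout gave the lowest unadjusted p of the members other than Rgs9 (0.0495, Cuffdiff q = 0.999966 in the authors' deposited table), with 32.0 FPKM against 38.0 FPKM under saline. Of the 35 tests of members other than Rgs9 that was the 1 with an unadjusted p under 0.05, and Cuffdiff called 0 of them. The other anchor gene, Rgs9bp, stayed at the bottom of the scale in each group, with 0.0129 FPKM in desipramine-treated mice labelled knockout and 0.0204 FPKM in those labelled wild type in the authors' deposited table.

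Because levels per length can be added, the makeup of the R7 group was followed within each table. The 4 R7 genes summed to 276 FPKM in naive mice labelled knockout and 186 FPKM in those labelled wild type, from the authors' deposited values. After injury with saline the sum was 241 FPKM in mice labelled knockout and 167 FPKM in those labelled wild type, and with desipramine 225 FPKM in mice labelled knockout and 180 FPKM in those labelled wild type. Rgs9 made up 78.7% of the sum in naive, 73.6% in saline-treated and 74.6% in desipramine-treated mice labelled knockout. In mice labelled wild type it made up 64.7% in naive, 62.6% in saline-treated and 63.7% in desipramine-treated mice. Rgs7, Rgs11 and Rgs6 together summed to 58.9 FPKM in naive mice labelled knockout and 65.8 FPKM in those labelled wild type. With saline they summed to 63.6 FPKM in mice labelled knockout and 62.3 FPKM in those labelled wild type, and with desipramine to 57.0 FPKM in mice labelled knockout and 65.3 FPKM in those labelled wild type. In all 3 pairs the higher R7 sum of mice labelled knockout thus came mainly from Rgs9. For each FPKM of Gnb5 there were 1.79, 1.65 and 1.55 FPKM of Rgs9 in naive, saline-treated and desipramine-treated mice labelled knockout, against 1.06, 1.02 and 1.12 in those labelled wild type. Rgs7bp stood at 0.198 of the Rgs9 level in naive mice labelled knockout and 0.292 in naive mice labelled wild type. With desipramine Rgs7bp stood at 0.192 of the Rgs9 level in mice labelled knockout and 0.288 in those labelled wild type. These sums and ratios rest on 1 value per group and have no error of their own.

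**Figure D3:**
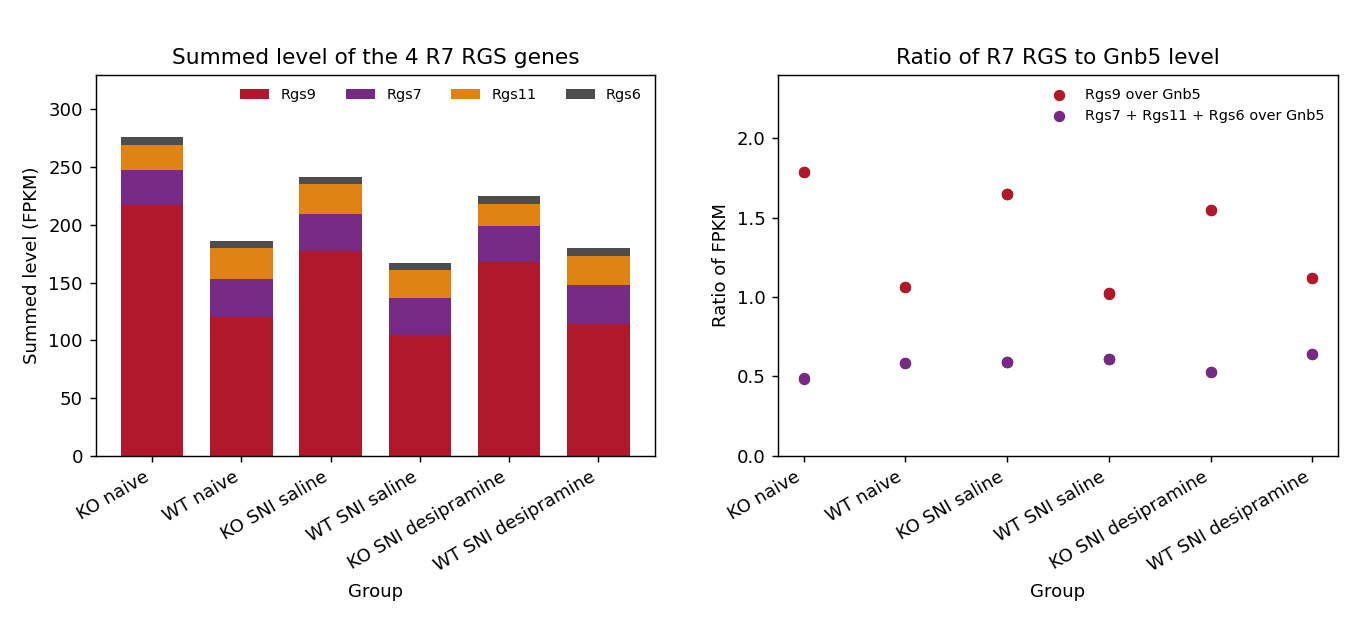
Left, summed FPKM of the 4 R7 RGS genes in each group as stacked bars, from the genotype tables. Right, the ratio to Gnb5 of Rgs9 and of the other 3 genes together, 1 point per table and group with no error bars; Rgs9 over Gnb5 lies at 1.55 to 1.79 in groups labelled knockout (KO) and at 1.02 to 1.12 in those labelled wild type (WT).

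Markers of medium spiny neurons, where Rgs9 is chiefly expressed, had moderate differences in the same direction. All 15 listed markers had values above 0 in each group. They summed to 4775 FPKM in naive mice labelled knockout and 3862 FPKM in those labelled wild type, in the authors' deposited table. With saline they summed to 3690 FPKM in mice labelled knockout and 3138 FPKM in those labelled wild type, and with desipramine to 3716 FPKM in mice labelled knockout and 3149 FPKM in those labelled wild type, in the authors' deposited tables. Log2 fold changes were positive for 14 of 15 in naive, 14 of 15 in saline-treated and 15 of 15 in desipramine-treated mice, with medians of 0.68, 0.15 and 0.22 against -0.02, 0.005 and -0.005 over all tested genes with at least 1 FPKM in either group. Cuffdiff called 3 of the 15 higher in naive mice, beside 0.334% of all tested genes. These were the dopamine receptor gene Drd1a, the GTPase gene Rasd2 and the phosphodiesterase gene Pde10a. In each of the others 0 were called, where the lowest q was 0.345 and 0.394. The change of Rgs9 was exceeded in naive mice by Rasd2 and Pde10a, and by 0 of 15 markers with saline and with desipramine. It lay above the list median by 0.17 in naive, 0.62 in saline-treated and 0.34 in desipramine-treated mice on the log2 scale. In bulk tissue more cells of a type and more RNA per cell cannot be told apart, and the part of these markers in the Rgs9 difference was not tested.

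Rgs9 and these markers also had the same sign for injury in mice labelled knockout. Of 15 markers 15 had a negative log2 fold change there, with a median of -0.46, and 4 were called lower, beside 0.169% of all genes: the dopamine receptor gene Drd2, the adenosine receptor gene Adora2a, Gpr6 and Rasd2. Rgs9 had -0.32 in that table and was not called. Gnb5, Rgs7bp and Rgs6 had -0.21, -0.21 and -0.24 there, while Rgs7 and Rgs11 had 0.07 and 0.17, with none called. In mice labelled wild type the injury table had a marker median of -0.002 with 7 of 15 positive. For desipramine the marker median was 0.011 in mice labelled wild type, with 8 of 15 positive, and -0.0099 in those labelled knockout, with 6 of 15 positive. These medians were too small for their sign to be set beside that of Rgs9. Other lists differed in the injury tables as well. In mice labelled knockout cortical excitatory neuron markers had 10 of 10 positive log2 fold changes, a median of 0.77 and 3 called higher, and hypothalamic and septal markers had 1 called higher and 2 lower. Of all tested genes 0.459% were called there in either direction. In mice labelled wild type 9 of 10 cortical and 8 of 10 choroid plexus markers were called lower after injury, beside 1.42% of all tested genes called in either direction. Their part in the injury values of Rgs9 was not tested. Markers of other cells differed with the genotype label too. Among all tested genes 1.11% were called lower and 0.334% higher in naive mice labelled knockout. These shares were 0.162% and 0.168% with saline, and 0.548% and 0.311% with desipramine. Cortical excitatory neuron markers summed to 80.0 FPKM in naive mice labelled knockout and 342 FPKM in those labelled wild type, with 9 of 10 called lower, in the authors' deposited table. With desipramine they summed to 71.0 FPKM in mice labelled knockout and 153 FPKM in those labelled wild type, with 5 of 10 called lower, in the authors' deposited table. With saline they summed to 130 FPKM in mice labelled knockout and 87.1 FPKM in those labelled wild type, with 0 of 10 called. Choroid plexus markers, with 0, 6 and 8 of 10 called in naive, saline-treated and desipramine-treated mice, all higher in the group labelled knockout, followed another pattern. They summed to 665 FPKM in naive mice labelled knockout and 1423 FPKM in those labelled wild type, with saline to 621 FPKM in mice labelled knockout and 120 FPKM in those labelled wild type, and with desipramine to 444 FPKM in mice labelled knockout and 28.4 FPKM in those labelled wild type. In naive, saline-treated and desipramine-treated mice the median log2 fold change was -2.05, 0.56 and -1.01 for the cortical list. For the choroid plexus list it was -0.72, 1.42 and 2.35. Markers of hypothalamic and septal neurons had 0, 2 and 2 of 7 called lower in naive, saline-treated and desipramine-treated mice labelled knockout, and those of oligodendrocytes, astrocytes and microglia had 0 called in each of the 3. The hypothalamic and septal list summed to 76.6 FPKM in naive mice labelled knockout and 27.3 FPKM in those labelled wild type. Of these sums Oxt made up 42.8 and 0.157 FPKM (Cuffdiff q = 0.0782). The other pairs went the other way, with 33.2 against 56.1 FPKM with saline and 68.2 against 93.2 FPKM with desipramine. The part of these lists in the Rgs9 values was not tested.

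**Figure D4:**
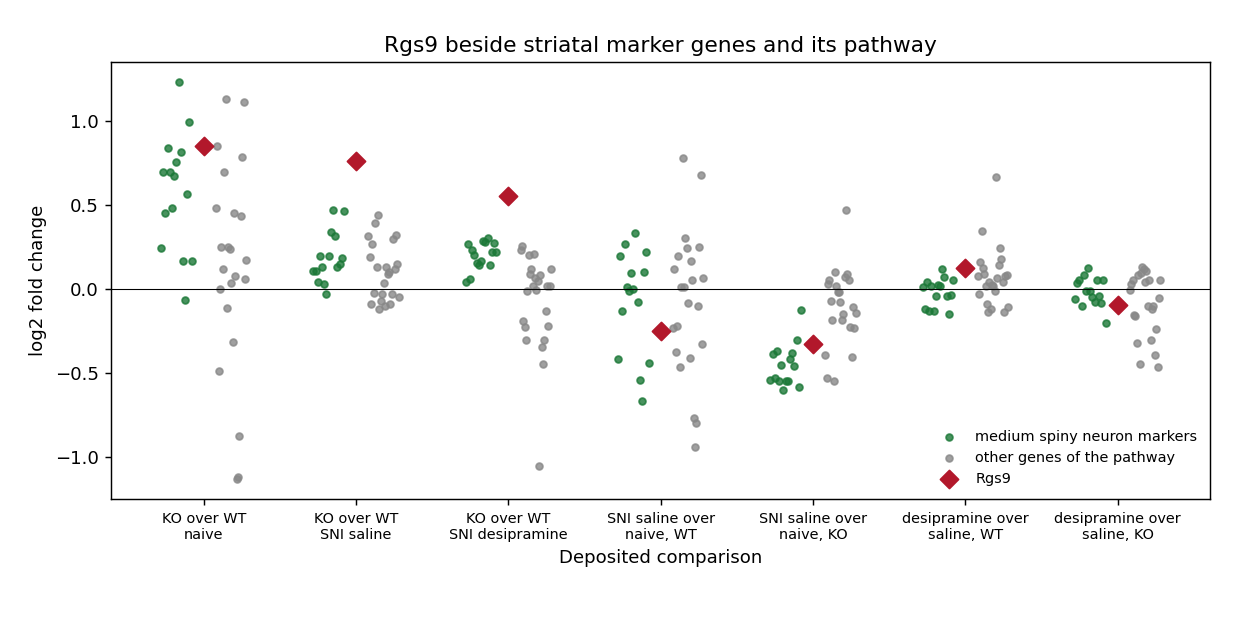
Log2 fold change of Rgs9 (diamond), of 15 medium spiny neuron markers (left column of points) and of the tested genes among 24 others of the pathway (right column) in the 7 deposited comparisons. Rgs9 lies above all points of both lists in the genotype comparisons with saline (0.77) and with desipramine (0.55), and among them in naive mice.

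The genes whose 7 log2 fold changes lay nearest to those of Rgs9 were sought among 12760 genes with at least 1 FPKM throughout, by the root mean square difference. Car12, a carbonic anhydrase gene, was the nearest at 0.09, with log2 fold changes between genotypes of 0.73, 0.61 and 0.47 in naive, saline-treated and desipramine-treated mice in the authors' deposited tables. Pdyn, which encodes the opioid peptide precursor prodynorphin, followed at 0.17, the activity-induced transcription factor gene Fosb at 0.18 and the synaptic scaffold gene Homer1 at 0.20. Grasp at 0.20 and Tmem200b at 0.21 completed the 6. Of these 6, Car12 was called in 2 of the 3 genotype tables and each of the others in 0. The nearest gene to Gnb5 was AI597468 at 0.008, to Rgs7 Slc44a2 at 0.01, to Rgs7bp Cnksr2 at 0.03, to Rgs6 Dnajc2 at 0.04 and to Rgs11 Impa2 at 0.07. The comparisons share groups, so the 7 values of a gene are not independent. Since these genes were picked for their likeness in the same values, their fold changes and calls are no separate evidence.

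Among 24 other genes of the pathway, 23 or 24 were tested per table, and few were called. In naive mice 2 of 23 were lower in the group labelled knockout and 0 higher, both of them subunits of the potassium channels that Gi/o-coupled receptors open. Kcnj3 had 8.15 FPKM in mice labelled knockout and 17.9 FPKM in those labelled wild type (log2 fold change -1.13 ± 0.49, Cuffdiff q = 0.00761) in the authors' deposited table. Kcnj9 had 14.2 FPKM in mice labelled knockout and 26.1 FPKM in those labelled wild type (log2 fold change -0.88 ± 0.40, Cuffdiff q = 0.0421) in the authors' deposited table. These 2 had the same sign as the cortical and choroid plexus list medians of that table. Of all genes tested there 1.11% were called lower and 0.334% higher. The part of these lists in the 2 calls was not tested. With saline and with desipramine 0 of 23 and 0 of 24 were called between genotypes, with q at 0.99995 for all with saline, the muscarinic receptor gene Chrm4 among them, and a lowest q of 0.215, for Kcnj9, with desipramine in the authors' deposited tables. The list medians were 0.17, 0.10 and 0.02 in naive, saline-treated and desipramine-treated mice.

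By role, the 6 genes of Gi/o-coupled receptors had a median log2 fold change of 0.74 in naive mice, with 6 of 6 positive and 0 called. With saline their median was 0.31 with 6 of 6 positive, and with desipramine 0.003 with 3 of 6 positive, 0 called in both. The 5 genes of Gi/o alpha subunits, the substrates of R7 proteins, had medians of 0.04, -0.07 and 0.06 in naive, saline-treated and desipramine-treated mice and no call. The 6 effector genes, which include Kcnj3 and Kcnj9, had medians of -0.44, 0.04 and -0.30, with 2, 3 and 1 of 6 positive. Their summed level went the other way, with 269 FPKM in naive mice labelled knockout and 204 FPKM in those labelled wild type. With saline the sums were 219 against 197 FPKM, and with desipramine 215 against 208 FPKM. Adcy5, an adenylyl cyclase gene, had 191 against 106 FPKM in naive mice and was not called. The 5 genes of RGS9-2 or anchor partners had medians of 0.08, 0.09 and 0.08 and no call. Within genotypes 1 call was made in the 4 tables: Drd2, the D2 receptor gene and also a medium spiny neuron marker, after injury in mice labelled knockout. It had 56.2 FPKM in injured, saline-treated mice and 82.0 FPKM in naive mice (log2 fold change -0.55 ± 0.24, Cuffdiff q = 0.0128) in the authors' deposited table. In mice labelled wild type the injury table had 51.6 FPKM in injured and 51.1 FPKM in naive mice, a log2 fold change of 0.01 ± 0.43 (authors' deposited table). The injury response of Drd2 differed between mice labelled knockout and wild type by -0.56 ± 0.49 on the log2 scale (interval -1.52 to 0.40, adjusted p = 0.999981), which did not pass. In the other 3 tables within a genotype the lowest q of the list was 0.0733 for Kcnj9 after injury in mice labelled wild type, 0.999946 for Gpr179, an orphan receptor gene, and for all others of the list with desipramine in mice labelled wild type, and 0.641 for the delta opioid receptor gene Oprd1 with desipramine in mice labelled knockout, in the authors' deposited tables.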

How the data were processed

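RNA from nucleus accumbens was made into TruSeq libraries and sequenced on an Illumina instrument, per the labels' protocols. The submitters' processing notes name Bowtie2 2.1.0, TopHat2 2.0.9, Cuffdiff 2.1.1, mm9 and NCBIM37. Which annotation release and which options were used is not given in the sources used here. Per the file headers, the authors deposited 7 tables with FPKM per gene and group, the log2 fold change, Cuffdiff's test statistic (a score), a p-value and a q-value. The FPKM values were normalized by the authors within each table, which leaves small differences in a group's level between tables. The fit with limma that was planned for values per sample could not be run, since none were given. Dividing each log2 fold change by its test statistic gave the standard error. Genes were left without one if it came out at or below 0, if fold change and FPKM ratio disagreed by over 0.01 (log2), or if the statistic's normal p was below 0.0001 although the deposited p exceeded 0.05. Differences between genotype differences used a two-sided normal p with Benjamini-Hochberg adjustment over genes with at least 1 FPKM in all 4 groups, checked on simulated data. The simulated data had normal errors of the size that the test assumes and effects larger than those of Rgs9. They therefore do not show how the test performs on the deposited values. The deposited test statistics had a narrow middle compared with a normal distribution (standard deviation equivalent 0.319 to 0.565), so normal p-values and intervals are wide for most genes. Members were named in all cases, other pathway genes where called or lowest in q, and the 6 genes nearest to Rgs9 and 1 nearest to each other member by a distance rule. Members, lists, rules and thresholds were chosen with earlier results of these data known. Calculations used Python 3.11.15, pandas 2.3.3, NumPy 2.4.6 and SciPy 1.17.1.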

Additional observations from a re-analysis of the deposited data

How the results depend on the processing

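The log2 fold changes of the 6 tested members in 7 comparisons, 42 values, were recomputed under 7 alternatives. Of 294 recomputed values 284 kept their direction and their side of the threshold. This count says little about robustness, since most of these values could hardly have changed. A changed threshold or adjustment leaves the log2 fold change as it is, and no uncalled value had a Cuffdiff q under 0.885. The 9 that lost a call were all Rgs9 between genotypes, and 1 changed sign, Gnb5 for desipramine against saline in mice labelled knockout, which moved from -0.004 to 0.0116 when centred on the median of all genes. The count of members called in naive mice was 1, and 0 with q at or below 0.01, with adjustment over all 7 tables, with a normal p taken from the statistic and with centred changes. With saline it was 1, and 0 with q at or below 0.01, with the normal p and with centred changes. With desipramine it was 1, and 0 with the normal p and with centred changes. The normal p accounts for the loss in the centred setting too, where the log2 fold change of Rgs9 was 0.88, 0.76 and 0.56 in these 3 comparisons (adjusted p of 0.999972, 0.999997 and 0.752). Counts in the other 4 comparisons stayed at 0, as did the counts of members whose genotype difference changed, by the normal test, in each alternative run. The Rgs9 share of the R7 sum was also read from the other tables, an alternative chosen after seeing the data, and stayed nearly the same. Those tables hold the same samples of a group, so the share could hardly have moved. Adding the rows of a symbol changed nothing, since each symbol had 1 row. No paired analysis was possible because the columns hold 1 value per group and carry no replicate numbers, and for the same reason no replicate could be left out. The calls with saline and with desipramine do not use the naive group labelled wild type. The difference between desipramine-treated and naive mice was not run from the tables within a genotype, since those 2 steps share the saline group. Depth per sample is unknown and sets no limit that can be stated.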
